A study of Columba livia with 16 samples.

Results

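Among the H3K27ac regions of embryonic pigeon limb buds, those with a peak in the hindlimbs of both breeds and in the forelimb of the racing homer, but with no peak in the forelimb of the Indian fantail, are described here. The regions were chosen by the presence of peaks alone. The 4 deposited peak lists, a single list for each breed and limb, were pooled, intervals that overlapped by at least 1 bp were joined, and each merged region was assigned to the lists with a peak in it. This gave 1503 regions (hereafter members) out of 26456 merged regions, or 5.68% (95% Wilson interval 5.41–5.97%, which covers counting error only). Since presence of a peak selected the members, presence and the peak scores are given as a description, and no test was run on them.

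The racing homer is a breed with scaled feet, and the Indian fantail is a small-muffed breed with feathered feet. Limb buds of both breeds were collected from embryos at Hamburger-Hamilton stage 25, and chromatin was precipitated with an antibody against H3K27ac. Forelimbs and hindlimbs of each breed were represented by 2 ChIP libraries and 2 input libraries, 16 libraries in all. The labels do not say how many embryos went into a library, and the Indian fantail is reported to lack an interval near *Pitx1* on scaffold 79, in which a peak of that breed cannot occur.

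H3K27ac is an acetylated form of histone H3 that marks active enhancers and promoters. Forelimb and hindlimb buds share most of the machinery of outgrowth and patterning, and a small set of transcription factors sets them apart: *Tbx5* is expressed in the forelimb bud, whereas *Pitx1* and its target *Tbx4* are expressed in the hindlimb bud. Acetylated regions of the limb bud accordingly include elements used in both kinds of limb and elements used in a single kind. Whole buds were assayed, so fewer cells carrying the mark and less acetylation per cell cannot be told apart.

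Each list combines the replicates of its group, so no value has an error between replicates, and the sequencing depth behind a peak is unknown. A peak missing from a list is therefore not shown to be missing from the tissue. The racing homer has 16474 peaks in the forelimb list and 18821 in the hindlimb list, and the Indian fantail has 15357 and 22407. The list in which the members have no peak is thus the shortest. Each peak carries a score from the peak caller, with a lowest value of 50.0 in every list, and its size can depend on the depth and background of its list. For comparisons between lists each score was therefore expressed as a percentile, the percentage of peaks in the same list with a lower score.

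Most regions of both hindlimbs were also present in both forelimbs. Peaks in all 4 lists were found in 9718 merged regions, whereas 2464 had peaks in both hindlimb lists and in neither forelimb list. Among the 11221 regions with peaks in both hindlimb lists and the racing homer forelimb list, 13.4% had no Indian fantail forelimb peak and are the members. The mirrored pattern, with a peak in the Indian fantail forelimb and none in the racing homer forelimb, was found in 1229 of 10947 regions (11.2%). Where both hindlimb lists and a single forelimb list had a peak, 55.0% (53.1–56.9%) of 2732 regions had the racing homer forelimb peak. This split changed with the way the lists were cut. When each list was reduced to its 15357 highest-scoring peaks, 875 regions had the members' pattern and 927 were mirrored, and the share became 48.6% (46.3–50.9%). That cut removes no peak from the Indian fantail forelimb list. With scores of at least 100 in each list the share was instead higher, at 58.6% (56.2–60.9%). With scores at or above the list medians it was 58.4% (55.8–61.0%). The other patterns with peaks in 3 lists were less frequent, with 666 regions lacking only a racing homer hindlimb peak and 270 lacking only an Indian fantail hindlimb peak.

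**Figure D1:**
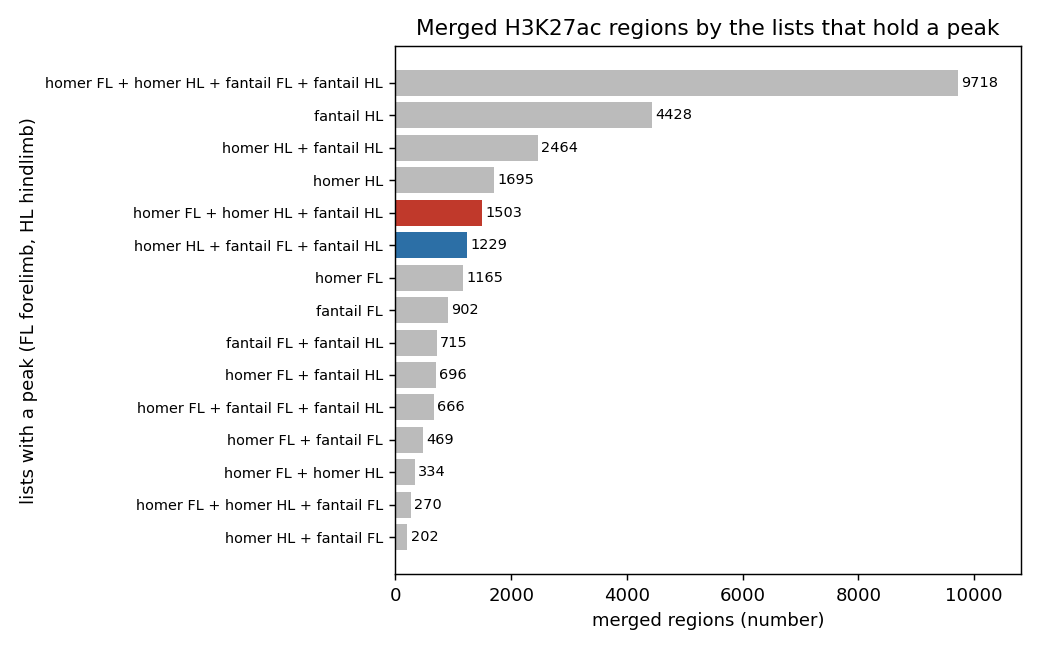
Number of merged regions (horizontal axis) for each of the 15 combinations of lists with a peak (vertical axis). The members (red bar) number 1503 and the mirrored regions (blue bar) 1229, against 9718 regions with a peak in every list.

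The members were weak to moderate peaks of their lists, and their median percentile was lowest in the forelimb. In the racing homer forelimb list their scores ran from 50.1 to 1262 with a median of 79.04 (quartiles 62.5 and 108), and its hindlimb peaks scored 50.0 to 446 with a median of 96.2 (quartiles 71.8 and 140). In the Indian fantail hindlimb list they ran from 50.2 to 1596 with a median of 123 (quartiles 86.4 and 183). These medians correspond to percentiles of 29.1, 38.4 and 46.1 within the respective lists. Regions present in all 4 lists had median percentiles of 67.1 in the racing homer forelimb, 71.7 in the racing homer hindlimb and 76.9 in the Indian fantail hindlimb. This is the same order, and also the order of the lengths of the lists. A lowest percentile in the forelimb is therefore not particular to the members, and its relation to list length was not tested. Of the 1503 members, 1238 (82.4%, 80.4–84.2%) had a forelimb score below the median of that list, against 29.8% of the regions of all 4 lists.

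Within a member, the forelimb peak ranked below each hindlimb peak more often than above it. The percentile in the racing homer forelimb was lower than in the racing homer hindlimb in 937 members (62.3%, 59.9–64.8%), lower than in the Indian fantail hindlimb in 1091 (72.6%, 70.3–74.8%), and the lowest of all in 778 (51.8%, 49.2–54.3%). The first of these shares was close to that of the regions of all 4 lists, in which the racing homer forelimb ranked below the hindlimb in 61.2% (60.2–62.2%). The other shares were not computed for those regions. In the mirrored regions, the Indian fantail forelimb ranked below that breed's hindlimb in 82.3% and below the racing homer hindlimb in 65.2%. It was the lowest of all in 59.2% of them. The forelimb percentile was the highest of the 3 in 253 members (16.8%), against 11.7% of the mirrored regions. In 613 members (40.8%) every score was below the median of its list, like the 40.9% of the mirrored regions. In 99 members (6.59%, 5.44–7.95%) every score was at or above it, against 4.88% (3.81–6.23%) of the mirrored regions. These shares were not computed for the regions of all 4 lists. Regarding the hindlimbs alone, both scores were at or above the list medians in 314 members and both were below in 673, and these counts were made for the members only.

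**Figure D2:**
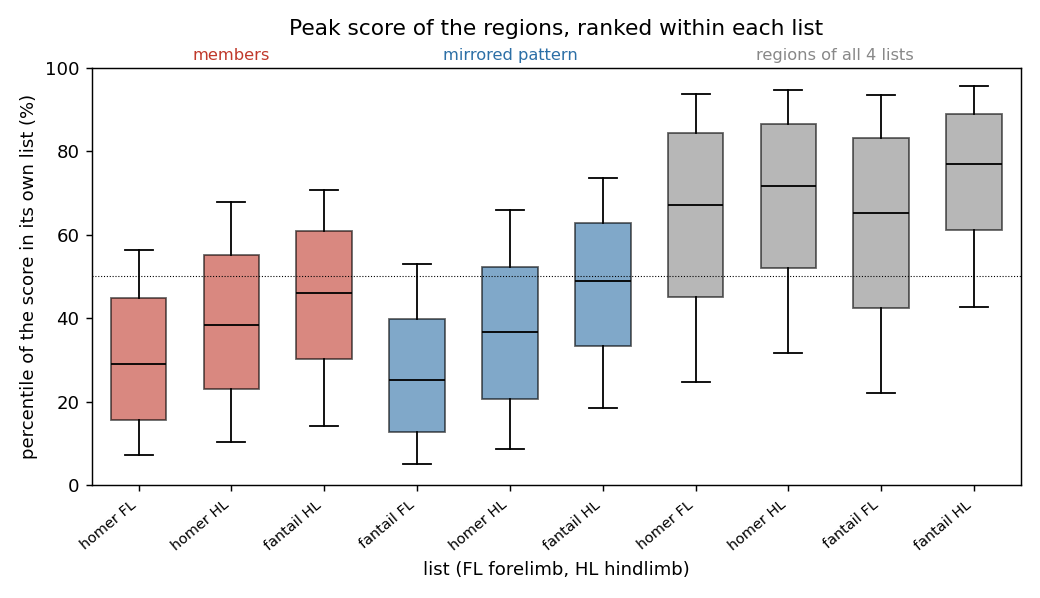
Percentile of the peak score within its own list (vertical axis) for members (red), mirrored regions (blue) and regions of all 4 lists (grey), with boxes from the first to the third quartile, a line at the median and whiskers from the 10th to the 90th percentile of the regions. The members have medians of 29.1, 38.4 and 46.1, all below the dotted line at 50, and the regions of all 4 lists have medians above it.

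The mirrored regions showed the same order. Their median percentile was 25.1 in the Indian fantail forelimb, 36.7 in the racing homer hindlimb and 48.8 in the Indian fantail hindlimb. The mirrored forelimb peak scored below its list's median in 1077 of 1229 regions (87.6%). In both patterns the Indian fantail hindlimb, the longest list, held the highest median percentile, so the order of the hindlimbs was the same in both.

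How often the Indian fantail forelimb peak was missing depended on the score of the racing homer forelimb peak. With a racing homer forelimb score from 50 to 60, 295 of 763 regions (38.7%, 35.3–42.2%) lacked it, and with a score from 60 to 80, 476 of 1290 (36.9%). The share was 15.9% at scores from 100 to 150 and 1.86% (1.30–2.67%) at scores from 200 to 300. Among the 1740 regions with a score of 500 or more, 1 lacked an Indian fantail forelimb peak. The mirrored shares were 38.6% at scores from 50 to 60, 20.7% at 80 to 100 and 0.975% at 200 to 300. The members, like the mirrored regions, were therefore concentrated near the lowest score that the lists contain. Of the mirrored regions, 78.4% had an Indian fantail forelimb score below 100 and 1 had 300 or more. In the regions of all 4 lists, 21.8% had a racing homer forelimb score below 100 and 3114 of 9718 had 300 or more. Of the members, 1054 (70.1%) had a racing homer forelimb score below 100 and 7 had 300 or more. The lowest scores, and thus the members just inside the limit of the list, were 50.1 on scaffold 79 from 8217629 to 8221147, 50.2 on scaffold 506 from 2609579 to 2610495, 50.2 on scaffold 849 from 89176 to 91727, 50.2 on scaffold 1248 from 86758 to 88761 and 50.2 on scaffold 835 from 684846 to 686448. The hindlimb scores of these members differed widely. The member on scaffold 849 had a racing homer hindlimb score of 241 and an Indian fantail hindlimb score of 531, and the member on scaffold 835 had 57.9 and 60.3.

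**Figure D3:**
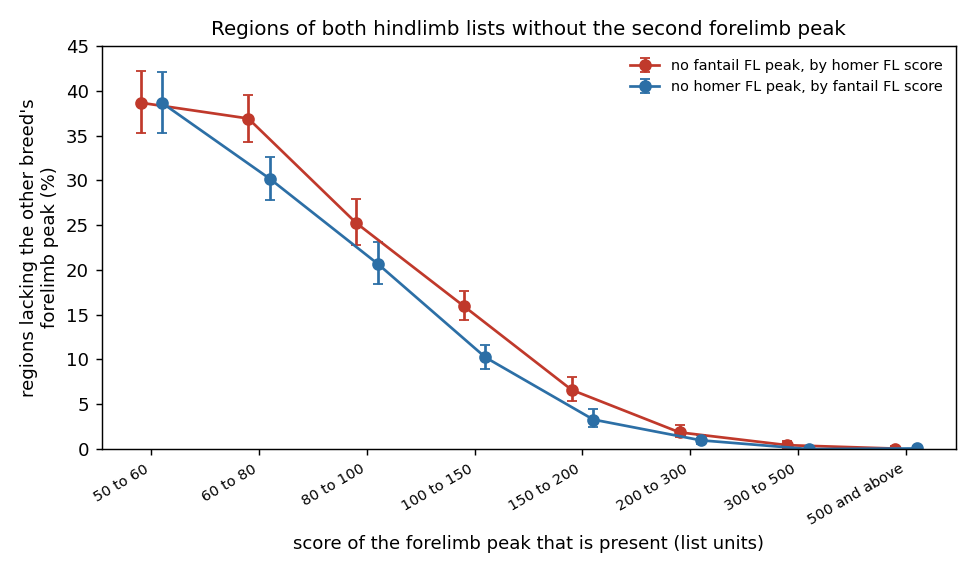
Share of regions lacking the forelimb peak of the other breed (vertical axis, with 95% Wilson intervals), among regions with peaks in both hindlimb lists, by the score of the forelimb peak that is present (horizontal axis). The share falls from 38.7% to 1.86% for a missing Indian fantail peak (red) and from 38.6% to 0.975% for a missing racing homer peak (blue) between the first bin and the bin from 200 to 300.

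At a like forelimb score, the members also had lower hindlimb scores than the regions of all 4 lists. With a racing homer forelimb score from 60 to 80, the 476 members had median scores of 89.1 (racing homer hindlimb) and 112 (Indian fantail hindlimb), whereas the 814 regions of all 4 lists had 119 and 165. With a forelimb score from 150 to 200, the 88 members had 138 and 161, and the 1245 regions of all 4 lists had 200 and 285. Both hindlimb medians were lower in the members in each of the 8 bins of forelimb score, although the highest bin holds 1 member. Across the members the scores were only loosely related, with Spearman's rho of 0.22 between the racing homer limbs and 0.38 between the hindlimbs of the breeds (1503 regions). In the 9718 regions of all 4 lists, which span a wider range of scores, the corresponding values were 0.75 and 0.82. Neighbouring regions share libraries and are not independent, so these values are given without a test.

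The median width of the members was 1899 bp (quartiles 1187 and 2538 bp), close to the 1929 bp of the mirrored regions. The other patterns with peaks in 3 lists were wider. Regions lacking only a racing homer hindlimb peak had a median of 2230 bp, and those lacking only an Indian fantail hindlimb peak 2154 bp. Regions of both hindlimbs only had 1653 bp and regions of all 4 lists 2771 bp. A merged region joins the peaks of its lists, so the rule itself makes regions of more lists wider. Together the members cover 3.00 Mb of the 60.2 Mb in merged regions. The forelimb peak was the narrowest, with a median of 1153 bp against 1460 bp in the racing homer hindlimb and 1602 bp in the Indian fantail hindlimb. In 1081 members (71.9%) the racing homer forelimb peak was narrower than the hindlimb peak, and the median ratio of the widths was 0.852, against 0.922 in the regions of all 4 lists. The mirrored regions were alike. Their Indian fantail forelimb peak was narrower than that breed's hindlimb peak in 77.3%, with a median ratio of 0.826. Most members were simple: 1396 (92.9%) consisted of 1 peak in each of the 3 lists, and in 1384 of these the 3 peaks all overlapped each other. The centres of the forelimb and hindlimb peaks of the racing homer were a median of 123 bp apart, and the forelimb peak lay entirely within the hindlimb peak in 598 of these 1396 members. The rule joins only peaks that overlap, so much of this agreement in position follows from it. Of the mirrored regions with 1 peak in each of their 3 lists, the peaks all overlapped in 1122 of 1131. Few members were thus chains of neighbouring peaks.

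The rule depends on overlap of at least 1 bp, and few members are held together by an overlap near that limit. More lie close to an Indian fantail forelimb peak: 206 of 1503 gained one when peaks within 500 bp were joined. This count was made for the members only, so it is not set against other regions. The smallest overlap that holds a member together was 13 bp, on scaffold 684 from 62585 to 66053, and 7 members are held by under 100 bp. On the other side of the limit, the region on scaffold 274 from 960361 to 964137 was left out through an overlap of 21 bp with an Indian fantail forelimb peak. The members nearest to an Indian fantail forelimb peak were separated from it by 3 bp on scaffold 385 (240180 to 242886), 8 bp on scaffold 17 (17110680 to 17111457), 9 bp on scaffold 596 (282845 to 283642), 10 bp on scaffold 20 (871006 to 871948) and 18 bp on scaffold 17 (15935752 to 15937150). In the member on scaffold 17 at 17110680, the forelimb score was 59.1, whereas the Indian fantail forelimb peak next to it scored 536.

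An Indian fantail forelimb peak often lay close by without touching the member. Its median distance was 10115 bp (quartiles 2395 and 33337 bp), and 532 members (35.4%, 33.0–37.8%) had such a peak within 5 kb. Among all 12285 regions without an Indian fantail forelimb peak, the median distance was 12766 bp and 31.2% (30.4–32.0%) had a peak within 5 kb. For the mirrored regions and racing homer forelimb peaks, the values were 10214 bp and 33.4% (30.8–36.0%). The distances of the members were therefore slightly shorter than in the background and like those of the mirrored regions. Where a peak lay within 5 kb of a member, its median score was 125, near the 124 of such peaks within 5 kb of all regions without an Indian fantail forelimb peak. A peak lay within 1 kb of 225 members, against 1470 of the 12285 regions without an Indian fantail forelimb peak and 177 of the 1229 mirrored regions. The nearest peak on the scaffold was over 100 kb away for 134 members (8.92%). This was near the 9.82% of those 12285 regions and the 8.22% of the mirrored regions. A further 18 members lie on scaffolds that hold no Indian fantail forelimb peak, against 186 of the 12285 regions.

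**Figure D4:**
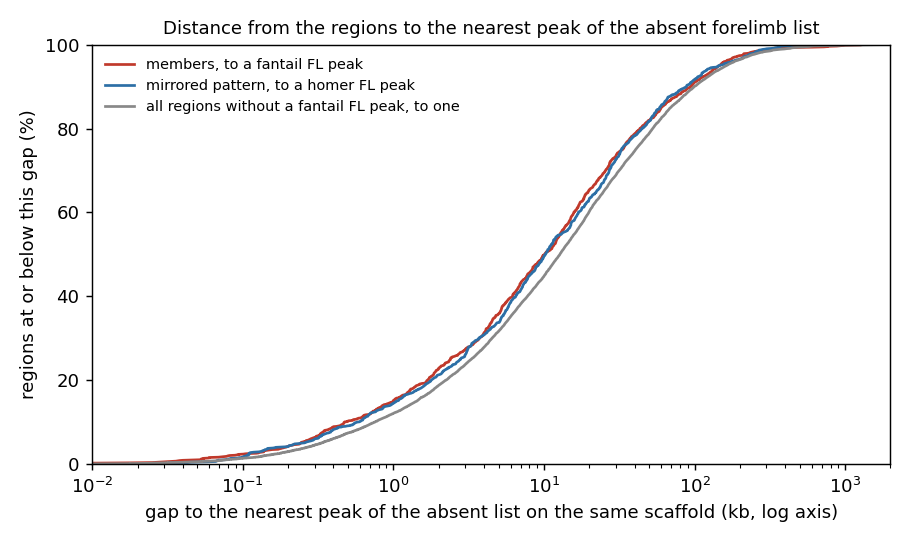
Cumulative share of regions (vertical axis) by the gap in kb to the nearest peak of the forelimb list that lacks them on the same scaffold (horizontal log axis). The curves of the members (red, median 10115 bp) and the mirrored regions (blue, median 10214 bp) run close together and slightly left of all regions without an Indian fantail forelimb peak (grey, median 12766 bp).

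Some members were well above the threshold in all 3 lists. Taking the lowest of its 3 percentiles as the measure of a member, the highest value, 84.6, belonged to scaffold 274 from 1556894 to 1568017. This region had 2 racing homer forelimb peaks with a highest score of 406, a racing homer hindlimb peak of 385 and an Indian fantail hindlimb peak of 1596, the highest score of any member in that list. The nearest Indian fantail forelimb peak was 2905 bp away and scored 177. It was the only member with all 3 percentiles at or above 75. Next was scaffold 111 from 5661325 to 5664960, with scores of 292 in the racing homer forelimb, 353 in the racing homer hindlimb and 296 in the Indian fantail hindlimb, and with the nearest Indian fantail forelimb peak at 14474 bp. Its percentiles were 79.05, 82.7 and 74.8, whereas those on scaffold 274 were 85.4, 84.6 and 97.4.

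The following members by this measure had forelimb scores from 182 to 339. On scaffold 133 from 846523 to 852479, a single Indian fantail hindlimb peak of 441 covered 2 racing homer forelimb peaks of 134 and 224 and 3 racing homer hindlimb peaks of 59.0 to 226. On scaffold 436 from 597020 to 599890, the scores were 212 in the racing homer forelimb, 284 in its hindlimb and 478 in the Indian fantail hindlimb, and no Indian fantail forelimb peak was found within 33064 bp. Scaffold 482 from 132896 to 136503 had 201, 217 and 444 in the same order, but an Indian fantail forelimb peak of 146 began 203 bp beyond it. This member thus lies next to a peak of the list that lacks it, and the member on scaffold 436 does not. On scaffold 244 from 3111420 to 3116495, the scores were 339, 204 and 374, and an Indian fantail forelimb peak of 370 ended 1082 bp before it. Scaffold 637 from 3135 to 6149 had scores of 196, 247 and 371. Scaffold 150 from 2137017 to 2141707 had 195, 228 and 350. In both of these the Indian fantail hindlimb had the highest percentile and the racing homer forelimb the lowest. The remaining 2 were scaffold 367 from 1001940 to 1005346, with 239, 191 and 308 and an Indian fantail forelimb peak of 52.3 at 469 bp, and scaffold 16 from 6174734 to 6176501, with 182, 227 and 494. Of these 10 members, the racing homer forelimb ranked highest in its list only on scaffold 244, by a margin of under 2 percentiles over the Indian fantail hindlimb.

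The widest member was unlike the others. On scaffold 150 from 2993170 to 3010580, it spans 17411 bp and holds 3 racing homer forelimb peaks with scores of 1020, 1262 and 304, the first 2 of which are above the 96th percentile of their list. The racing homer hindlimb had a peak of 14327 bp with a score of 351 and a second with 89.1. In the Indian fantail hindlimb a single peak of 16673 bp had a score of 62.0, at the 13.0th percentile. The nearest Indian fantail forelimb peak, with a score of 149, was 11898 bp away. The region was thus strong in the racing homer forelimb and barely above the lowest score in the Indian fantail hindlimb, and it is the single member with a forelimb score above 500. A wide peak with a low score is rare in that list: of 215 Indian fantail hindlimb peaks of at least 10 kb, 2 had a score below 100, and their median score was 1416. The second widest member was the region on scaffold 274 described above. In the third, on scaffold 94 from 2188336 to 2195840, the hindlimb scores were 382 and 644 and the forelimb score was 68.2. The fourth, on scaffold 34 from 6353529 to 6359984, had 108 in the forelimb, 173 in the racing homer hindlimb and 259 in the Indian fantail hindlimb, and the fifth, on scaffold 16 from 1672751 to 1679079, had 145, 181 and 93.5. In the members on scaffolds 94 and 34 the forelimb had the lowest percentile, and in the last one the Indian fantail hindlimb did.

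*Pitx1* encodes a homeodomain transcription factor of hindlimb identity. In the window of scaffold 79 that contains it, 3 of 16 merged regions were members, against 1503 of 26456 (5.68%) among all merged regions. No annotation was used, so the distances of these members from the gene are not given. The window was chosen because the study names the locus, and it holds few regions, so the difference in share was not tested. All 3 members lie beyond the deleted interval of scaffold 79, in the adjoining window that contains *H2afy* (a gene for a macroH2A histone variant) and *Pitx1*. The first, from 6820523 to 6823512, had a score of 51.2 in the racing homer forelimb, 243 in the racing homer hindlimb and 516 in the Indian fantail hindlimb. The second, from 6851164 to 6855739, had a forelimb peak of 60.9, a pair of racing homer hindlimb peaks of 71.8 and 93.0, and an Indian fantail hindlimb peak of 240 that covered both. The third, from 6869553 to 6874628, had 81.1, 322 and 463. In each of them the racing homer forelimb ranked lowest, with percentiles of 1.89, 14.0 and 30.5, against 36.7 to 80.8 in the racing homer hindlimb and 69.2 to 86.4 in the Indian fantail hindlimb. The forelimb peaks were also narrower than the hindlimb peaks, with 1390, 1051 and 1517 bp against 2883, 4576 and 5076 bp in the Indian fantail hindlimb.

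Beside these members lie 2 regions of the mirrored pattern. The first stands between the first and second members, and the other lies beyond the third member. From 6832805 to 6837402, the Indian fantail forelimb list had a peak of 74.8 and the racing homer forelimb list had none, and from 6881269 to 6887214 the Indian fantail forelimb peak scored 161. Their highest racing homer hindlimb scores were 449 and 175, and their Indian fantail hindlimb scores were 291 and 783. Thus all 5 neighbouring regions had peaks in both hindlimbs and a peak in a single forelimb, which was the racing homer's in 3 and the Indian fantail's in 2. Closer to the deleted interval, 3 regions of the window had peaks in all 4 lists. At the far end of the window, the region from 6978327 to 6999489 had peaks with a score of 3100 in both hindlimb lists and none in either forelimb list. The highest hindlimb scores of the window were thus not in a member. A score of exactly 3100 recurs in 85 racing homer hindlimb peaks and 169 Indian fantail hindlimb peaks. Equal scores of 3100 were therefore not read as equal signal. The deleted interval itself has no member, which follows from the rule because neither Indian fantail list has a peak there. There was also no member in the windows of scaffold 70 around *Tbx5*, the T-box gene of forelimb identity, where the racing homer hindlimb list has no peak, or around *Tbx3*, a related T-box gene, where 7 of 8 regions had peaks in all 4 lists.

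**Figure D5:**
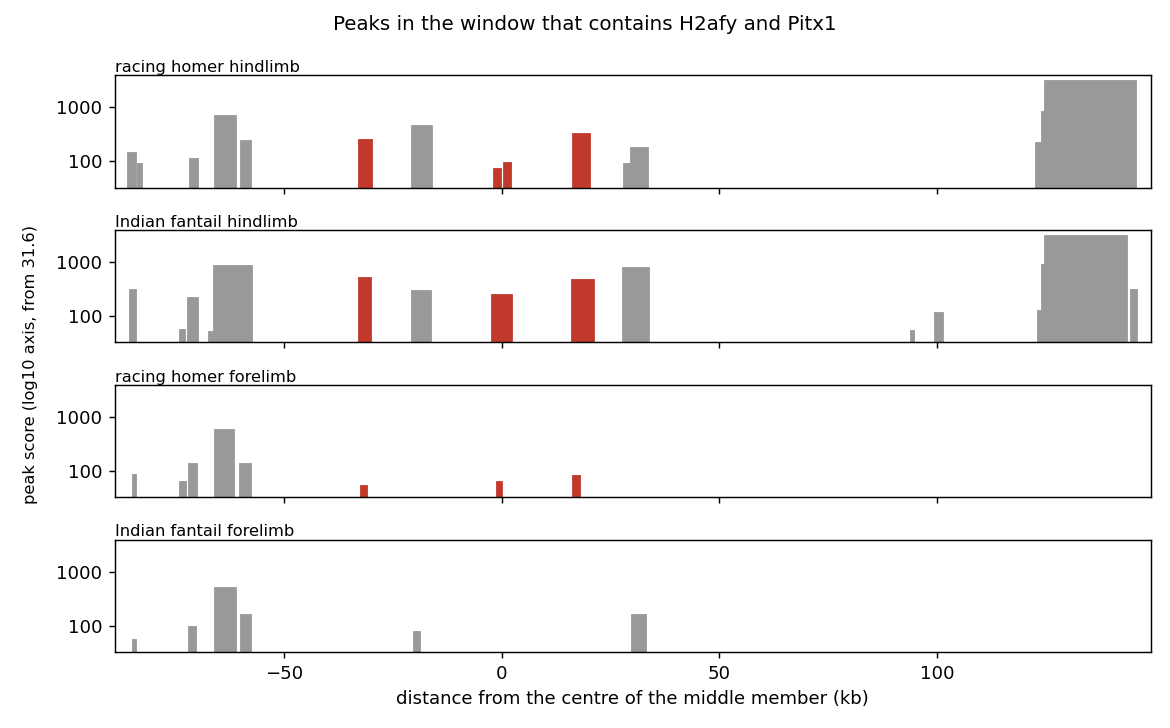
Peaks of the 4 lists in the window that contains *H2afy* and *Pitx1*, by distance in kb from the centre of the middle member (horizontal axis) and peak score (vertical log axis), with peaks in members in red. The 3 members have racing homer hindlimb peaks of up to 322, Indian fantail hindlimb peaks of up to 516, racing homer forelimb peaks of 51.2 to 81.1 and no Indian fantail forelimb peak.

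Across the whole of scaffold 79, 21 of 431 regions (4.87%, 3.21–7.33%) were members, near the 5.68% of all scaffolds, and 29 had the mirrored pattern. The 21 members had median scores of 93.9 in the racing homer forelimb, 135 in the racing homer hindlimb and 183 in the Indian fantail hindlimb, and the forelimb percentile was the lowest in 10 of them. The member on scaffold 79 from 2972475 to 2974760, for instance, had 169 in the forelimb, 145 in the racing homer hindlimb and 199 in the Indian fantail hindlimb.

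The members were mostly scattered. Another member lay within 10 kb for 118 of them (7.85%, 6.60–9.32%) and within 50 kb for 369 (24.6%, 22.4–26.8%). The corresponding shares of the mirrored regions were 8.22% (6.81–9.89%) and 21.8% (19.6–24.2%), and those of the 2464 regions of both hindlimbs only, which are more numerous, were 13.5% and 37.3%. When members no more than 50 kb apart were linked, 21 groups of 3 or more were formed. Of the 2908 neighbour positions of the members, 37.1% (35.4–38.9%) held regions of all 4 lists, against 36.9% of those of all merged regions. A region with a member on each side counts once for each. Other members made up 6.67% (5.82–7.64%), against 5.68%, and regions of both hindlimbs only made up 10.5% (9.39–11.6%), against 9.30%. Adjacent members also count as neighbours of each other, so each such pair enters from both sides. The interval of the share of other members is therefore too narrow, and the other intervals can be too narrow as well. Regions of both forelimbs only were less frequent beside a member, at 1.10% (0.781–1.55%) against 1.77%. Beside the mirrored regions their share was also low, at 0.757% (0.479–1.19%), so this is not particular to the members. Regions lacking only a racing homer hindlimb peak were likewise less frequent beside a member, at 1.93% (1.49–2.49%) against 2.56%. Their share beside the mirrored regions was 2.69% (2.11–3.42%). For the other 10 patterns, the interval of the share beside a member contained that beside all merged regions, with none of these differences tested.

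The largest group, with 6 members, spans 118 kb of scaffold 366 from 130442 to 248790. Its members had racing homer forelimb scores of 260, 154, 60.7, 76.0, 103 and 118 in order along the scaffold. The racing homer hindlimb scores were 186, 144, 233, 236, 124 and 93.5, and those of the Indian fantail hindlimb were 180, 122, 205, 173, 273 and 85.5. In percentiles, the racing homer forelimb was the highest of the 3 lists in the first, second and last member, and the lowest in the 3 between them. The Indian fantail forelimb list was not empty there, with 6 peaks in the same span, the strongest of which scored 126. The span was chosen for its members, which by the rule hold peaks of the other 3 lists and none of this one, so the numbers of peaks in it were not compared between lists.

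A further 3 groups had 4 members each. On scaffold 580 from 528687 to 572594, 4 of the 6 merged regions were members, and the Indian fantail forelimb list had a single peak there, with a score of 62.2. Their forelimb scores were 72.5, 60.9, 70.7 and 120, their racing homer hindlimb scores 61.4, 162, 121 and 51.8, and their Indian fantail hindlimb scores 153, 166, 214 and 67.5. On scaffold 128 from 360841 to 454288, the forelimb scores were 116, 122, 61.3 and 173, and the Indian fantail forelimb list had 2 peaks in the span, the stronger with 297. On scaffold 603 from 1642171 to 1719914, the forelimb scores were 110, 85.8, 126 and 211, but 6 Indian fantail forelimb peaks of up to 891 lay in the same span. Here too the members hold no Indian fantail forelimb peak by the rule, so the numbers of peaks in the spans were not compared between lists.

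Few members kept their pattern under every way of defining it. In lists of equal size, 874 of the 1503 members (58.2%, 55.6–60.6%) kept it, and when peaks within 500 bp were joined, 1297 (86.3%) kept it and the other 206 gained an Indian fantail forelimb peak. When only peaks at or above the median score of their list were used, 99 members kept it and 613 had no peak left in any list. With scores of at least 100, 231 members kept it, also when weaker Indian fantail forelimb peaks were counted as presence. No member holds such a peak by the rule, so both of these alternatives must keep the same members. Under all 6 alternatives 74 members (4.92%, 3.94–6.14%) kept their pattern. They lie on 68 scaffolds, with forelimb scores from 121 to 406 (median 154), racing homer hindlimb scores from 126 to 446 (median 191) and Indian fantail hindlimb scores from 140 to 1596 (median 233). They include 6 of the 10 members with the highest values in all 3 lists described above, and their median distance to an Indian fantail forelimb peak, 10168 bp, was like that of all members. The cut at the list medians is among the alternatives, so it sets the lower ends of these scores. All of those 10 members pass that cut, so the overlap with them follows in part from it.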

How the data were processed

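H3K27ac ChIP-seq was performed by the authors on forelimb and hindlimb buds of both breeds. The labels list CASAVA, Bowtie2 2.2.3, SAMtools, MACS 1.4.2 and MACS2 2.0.10.20130915 without their roles, and the genome build is not given in the sources used here. The score of each peak was used as deposited by the authors. Its lowest values near 50 resemble a log-transformed p-value as MACS reports it. This scale is an inference, and scores were not converted. The 2 deposited tables of the authors' own comparison of hindlimbs hold log10 likelihood ratios and were not used.

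Peaks of the 4 lists were merged where they overlapped by at least 1 bp, and coordinates are 1-based. A region with several peaks of a list took the highest score. Widths of peaks were summed within a list. Shares carry 95% Wilson intervals. The members, the windows and all other choices were made with earlier results of these data known. Regions named were all members in the *Pitx1*, *Tbx5* and *Tbx3* windows, the 10 with the highest lowest percentile, the 5 widest, the 5 nearest to and farthest from an Indian fantail forelimb peak, the 5 lowest forelimb scores and the largest groups within 50 kb, where 3 groups tied in second place and all were named. The member of scaffold 79 from 2972475 to 2974760 was chosen after its values were seen. No annotation or sequence of the assembly that numbers these scaffolds was used, so no other gene and no sequence is given. Python 3.11.15, numpy 2.4.6, scipy 1.17.1 and matplotlib 3.10.9 were used, and the merging was tested on simulated data.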

Additional observations from a re-analysis of the deposited data

How the results depend on the processing

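No paired analysis was possible because each list combines its replicates, and for the same reason no replicate could be left out. Depth is unknown, so absence of a peak means absence from a list. For each alternative the regions with the members' pattern were counted anew, so the counts can include regions outside the original 1503 members. When peaks were joined only if 50% of each was shared, 4.59% of merged regions had the pattern. Their share of the regions with a single forelimb peak was 51.7%. With scores of at least 100 in each list, 988 regions had the pattern (6.15% of regions, and 58.6% of those with a single forelimb peak). Mirrored regions numbered 699, and 231 of the original 1503 members kept the pattern. With scores at or above the list medians, there were 795 such regions (6.04% and 58.4%) and 566 mirrored regions, with 99 of the original members kept. Lists of equal size gave 875 such regions (4.08% and 48.6%), with 874 of the original members kept. A further alternative required scores of at least 100 where a peak is needed and counted any Indian fantail forelimb peak as presence. It gave 233 such regions (1.27% and 62.5%), beside 140 mirrored regions. Of 54 values under 6 alternatives, 13 stayed within 1.5 times the count or within the interval given for the share or median, and 41 moved beyond it. The share with the racing homer forelimb peak fell below that with the Indian fantail peak only in lists of equal size.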

Other observations

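Members were found on 418 of the 837 scaffolds that hold a merged region. On the 61 scaffolds with at least 100 regions, the share of members ranged from 0% to 11.4% with a median of 5.67%, and the 95% Wilson interval of 54 of them contained the share over all scaffolds. The interval lay above it on 4 scaffolds: scaffold 642 with 14 members of 123 regions (11.4%, 6.90–18.2%), scaffold 391 with 15 of 140 (10.7%), scaffold 128 with 12 of 117 (10.3%) and scaffold 87 with 21 of 240 (8.75%). It lay below on 3 scaffolds, among them scaffold 486, where 0 of 104 regions were members (interval up to 3.56%) and 7 had the mirrored pattern. These scaffolds were singled out after their values were seen, and intervals of 61 scaffolds were inspected.

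The members farthest from any Indian fantail forelimb peak lie in long stretches without a peak of that list. The density of the other lists there was not compared with other stretches. On scaffold 183, the members from 2841262 to 2842176 and from 2875104 to 2876788 were 1266951 and 1300793 bp from the nearest such peak. Beyond that peak, the scaffold holds 2 racing homer forelimb peaks, 4 racing homer hindlimb peaks and 2 Indian fantail hindlimb peaks, so both forelimb peaks of the stretch belong to members. On scaffold 199, the members from 1680594 to 1681290 and from 1713970 to 1714720 were 970627 and 1004003 bp away, in a stretch with 5 racing homer forelimb, 8 racing homer hindlimb and 9 Indian fantail hindlimb peaks. On scaffold 472, the member from 55500 to 56528 was 926493 bp away, in a stretch with 1 racing homer forelimb, 1 racing homer hindlimb and 2 Indian fantail hindlimb peaks. The forelimb scores of these 5 members were between 52.5 and 132, and their hindlimb scores were between 75.8 and 222.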
